A study of Mus musculus with 6 samples.

Results

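Epoxides, carbonyls and aldehydes are reactive small molecules that cells form from lipids, amines, amino acids and foreign compounds. The 10 genes described here, Ephx1, Ephx2, Cbr1, Cbr3, Aldh2, Aldh3a2, Aldh7a1, Aldh9a1, Rida and Por, encode enzymes that remove such molecules or that supply electrons for their turnover. They were chosen by gene symbol from the 43346 genes of the count table, with the comparison of 10HDA and vehicle in these libraries already known. The differences between treatments given for them are therefore descriptions: where the fit across all genes called a member, the call is stated, but it is no independent evidence and nothing is drawn from it. RNA came from primary cortical cell cultures of male Cyp19-EGFP mouse fetuses (SRY+) at gestational day 15.5, a strain in which a reporter marks cells that express aromatase. The methods for this experiment instead name C57BL/6 embryos, for both treatments alike. Each of cultures 1, 3 and 4 gave 1 library after vehicle (DMSO, labelled DSMO) and 1 after 1 mM 10HDA, the fatty acid 10-hydroxy-2-decenoic acid of royal jelly, for 6 libraries in all. The time of exposure and the number of embryos in a culture are not given in the sources used here, so the spread between libraries may be partly technical.

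Total counts on genes ran from 9144736 to 13367194 per library, and 3 counts corresponded to 0.221 to 0.336 CPM, that is, counts divided by library size after TMM scaling, edgeR's correction for composition. In both libraries of culture 1 the genes Uty, Kdm5d, Ddx3y and Eif2s3y of the Y chromosome summed to 9.07 and 9.3 CPM, against 97.8 to 136 CPM in the other 4, which goes against the male label of culture 1. Of 10520 genes tested with edgeR's quasi-likelihood test, 66 passed an adjusted p of 0.1, 21 of them higher and 45 lower with 10HDA (21 and 24 with library size alone as the scaling). All 8 neuron markers were tested, with summed levels of 7436 to 7956 CPM in vehicle and 6229 to 7145 CPM with 10HDA. Of 10 astrocyte markers, 5 were lower past the threshold (Gfap, Aldh1l1, Aldoc, Clu and Slco1c1), and the list summed to 1299 to 1595 CPM in vehicle and 974 to 1212 CPM with 10HDA. The 6 markers of meningeal fibroblasts summed to 93.4 to 153 and 33.3 to 73.9 CPM, but 1 was tested and 3 were under 1 CPM in every library. Pdgfra is on this list and also on that of the oligodendrocyte lineage. The 7 markers of endothelial cells and pericytes summed to 17.7 to 19.3 and 8.16 to 11.4 CPM, with 4 under 1 CPM in every library. The 1 tested, Pdgfrb, was lower past the threshold, so the sums of both lists rest on few genes. Oligodendrocyte lineage markers summed to 343 to 431 and 263 to 373 CPM, with Cspg4 lower past the threshold, and those of radial glia and progenitors to 737 to 907 and 669 to 743 CPM, while all 7 microglial markers were under 1 CPM in every library and Tmem119 was at 0. The sums of the neuron, astrocyte, fibroblast and endothelial lists did not overlap between treatments, and their part in the results below was not tested. In such bulk RNA, fewer cells of a type and less RNA per cell cannot be told apart.

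Epoxide hydrolases open the strained ring of an epoxide with water. Carbonyl reductases turn ketones and aldehydes into alcohols with NADPH, and aldehyde dehydrogenases oxidize aldehydes to acids with NAD or NADP. In brain, such enzymes act on products of lipid peroxidation, on aldehydes from monoamine breakdown and on epoxides of fatty acids.

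The bases around the transcription start were read for the members, because genes of this kind are known targets of NRF2, which binds antioxidant response elements, and of C/EBP-ATF factors of the amino acid response. RefSeq (GRCm38.p6) windows of 250 bases before to 50 after a start were at hand for 6 of the 10 members, namely Ephx1, Cbr1, Cbr3, Aldh3a2, Aldh9a1 and Por. Each had 1 window. Those of Ephx1, Cbr1 and Por lie inside the gene coordinates given below, away from their 5′ end, and any other start was not read. The core TGACNNNGC of the antioxidant response element was found, on either strand, in 1 of the 6 and in 12.4% of all 32851 windows in the table. The core TGATGNAA of a C/EBP-ATF element was found in 0 of the 6 and in 3.97% of all windows. The window of Ephx1, shown because this member differed most with 10HDA, lies at chr1:181017520-181017819 on the minus strand and held neither core. The window of Aldh9a1, shown because it was the one with a match, lies at chr1:167349741-167350040 on the plus strand, and capitals mark the match TGACTAGGC, which begins 87 bases before the start. Both are written 5′ to 3′ on the strand of the gene.
Ephx1: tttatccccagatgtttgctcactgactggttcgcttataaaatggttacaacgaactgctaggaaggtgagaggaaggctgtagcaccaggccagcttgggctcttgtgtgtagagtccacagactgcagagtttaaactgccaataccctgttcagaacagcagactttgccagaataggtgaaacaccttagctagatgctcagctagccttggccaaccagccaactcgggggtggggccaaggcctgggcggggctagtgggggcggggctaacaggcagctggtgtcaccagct
Aldh9a1: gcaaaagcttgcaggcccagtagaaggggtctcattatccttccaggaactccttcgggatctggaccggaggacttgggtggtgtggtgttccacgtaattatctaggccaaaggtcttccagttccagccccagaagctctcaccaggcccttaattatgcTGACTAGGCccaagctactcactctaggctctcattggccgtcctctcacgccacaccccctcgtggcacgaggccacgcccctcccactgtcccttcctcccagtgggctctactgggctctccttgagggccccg
The matching letters are a description of the window and not evidence of binding. Ephx2, Aldh2, Aldh7a1 and Rida had no entry.

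In untreated cultures the members spanned a wide range of RNA levels, which were compared per kb of exon because longer transcripts collect more reads. Cbr1 had the highest level in vehicle, 39.4 ± 6.31 CPM per kb (SD, n = 3), above 84.3% of the 10520 genes tested. Por followed with 26.7 ± 3.51 CPM per kb, and Aldh9a1 with 14.3 ± 0.225 CPM per kb was the highest of the aldehyde dehydrogenases. The median of all genes tested was 12.3 CPM per kb. Aldh7a1 (10.4 ± 0.385 CPM per kb), Aldh2 (8.63 ± 0.558) and Aldh3a2 (8.29 ± 0.567) lay below that median, above 43.9%, 36.9% and 35.4% of the genes tested. The ranges of Aldh2 and Aldh3a2 overlapped, so their order was not resolved. Ephx1 ranked 7 of 10, with 5.77 ± 1.44 CPM per kb, above 22.7% of the genes tested. The 3 scarcest members were Rida (2.66 ± 0.677 CPM per kb), Cbr3 (1.95 ± 0.41) and Ephx2 (1.03 ± 0.236), and the ranges of Rida and Cbr3 overlapped. The other neighbours in this order did not overlap in the 3 libraries. The order at the top depended on the gene model: with the longest transcript of GENCODE M21 as the length, Por had 40.7 and Cbr1 22.8 CPM per kb, and Aldh3a2 moved from rank 6 to rank 4.

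**Figure D1:**
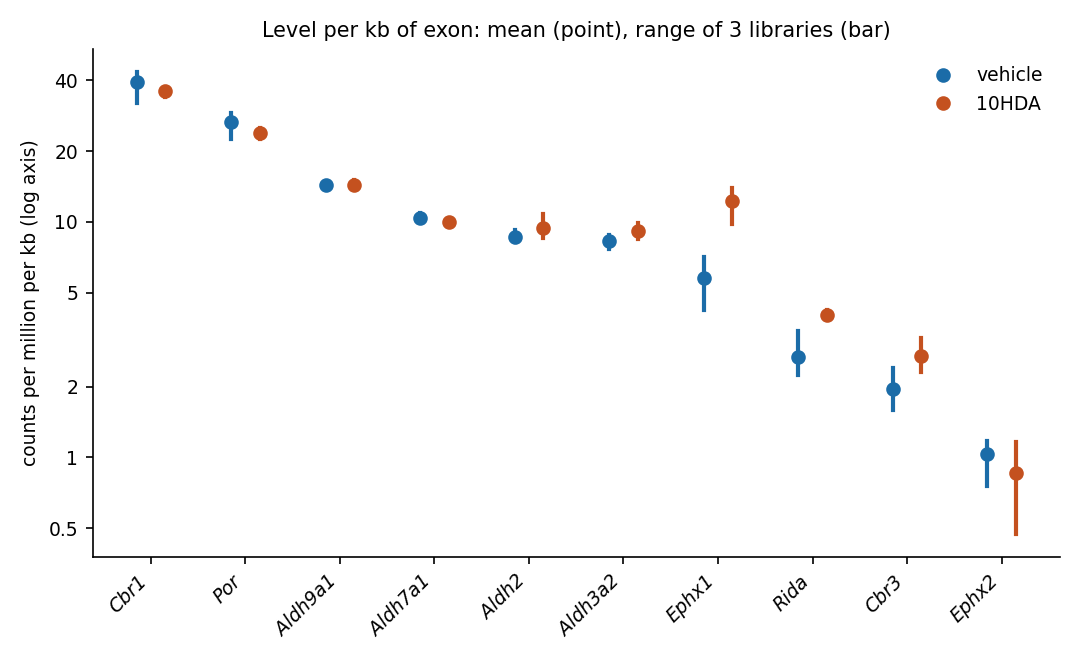
Level of each member in CPM per kb of exon (log axis), ordered by the vehicle mean. Points are means and bars the range of 3 libraries, in blue for vehicle and in orange for 10HDA. Ephx1 lies at 4.24 to 7.1 CPM per kb in vehicle and at 9.79 to 13.9 with 10HDA, and goes from rank 7 to rank 4 by the means. Its 10HDA range overlaps those of Aldh7a1, Aldh2 and Aldh3a2, so rank 4 is not resolved.

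Ephx1 and Ephx2 were the pair in which one gene differed with 10HDA and the other had too few counts to follow. Ephx1 encodes microsomal epoxide hydrolase, which acts on epoxides of foreign compounds and lipids at the endoplasmic reticulum. It lies on chromosome 1 from 180976210 to 181020904 on the minus strand (GENCODE M21, GRCm38). In cultures 1, 3 and 4 it had 11.6, 8.28 and 13.8 CPM with vehicle and 27.1, 19.1 and 25.6 CPM with 10HDA. Every 10HDA library lay above every vehicle library, and culture 3 was the lowest in both treatments. Mean levels were 11.3 ± 2.8 and 23.9 ± 4.25 CPM (SD, n = 3 each), and the fitted log2 fold change was 1.09 (standard error 0.20, 95% interval 0.65 to 1.53). Within cultures 1, 3 and 4 the 10HDA library had 2.33, 2.31 and 1.85 times the vehicle level. A pseudogene on the same strand, Gm36961, shares 72 exon bases with Ephx1, and 1.7% of the 50-base words of Ephx1 occur in it, so some reads could be assigned to either.

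Of the 8 members that passed the filter of 10 CPM in 3 libraries, 2 (Ephx1 and Rida) reached 10 CPM in all 3 libraries of 10HDA but not in all of vehicle, and so entered the fit through the group in which they were high. Ephx1 was the 1 member that passed the threshold, beside 0.627% of all genes tested (0.2% higher and 0.428% lower with 10HDA). Since the members were picked with this comparison known, nothing is read from that share. In a fit with culture as a block, which takes out the level of each culture, 2 members passed, Ephx1 and Rida, beside 8.98% of all genes tested. The call of Ephx1 without a culture term was lost in some fits with fewer libraries. Its log2 fold change was 0.92 without the vehicle library of culture 3, 0.99 without the 10HDA library of culture 1, 1.03 without both libraries of culture 1 and 1.05 without both of culture 3, and in each of these it no longer passed. In the same order 2, 0, 2 and 0 of all genes passed, against 66 with all libraries, so the loss was not particular to Ephx1. With the block and 1 culture left out the log2 fold changes were 1.06 (without culture 1), 1.05 (without culture 3) and 1.22 (without culture 4).

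Ephx2 encodes soluble epoxide hydrolase, which hydrolyses epoxides of arachidonic and other fatty acids. It lies on chromosome 14 from 66084374 to 66124500 on the minus strand, and did not pass the filter. In cultures 1, 3 and 4 it had 26, 20 and 28 counts with vehicle and 11, 26 and 21 counts with 10HDA, or 2.38, 1.55 and 2.38 CPM and 0.965, 1.92 and 2.35 CPM. The groups overlapped, and the low 10HDA value came from culture 1. With a filter of 1 CPM the log2 fold change was -0.26 (95% interval -1 to 0.47), so that no direction was resolved at this depth, and without culture 1 it was 0.12. It did not pass in that fit, in which 0.509% of genes did. Per kb, Ephx1 had 5.59 ± 0.489 times the level of Ephx2 in vehicle, and 10.4 to 29.3 times with 10HDA, where Ephx2 had 11 counts in culture 1, 26 in culture 3 and 21 in culture 4.

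**Figure D2:**
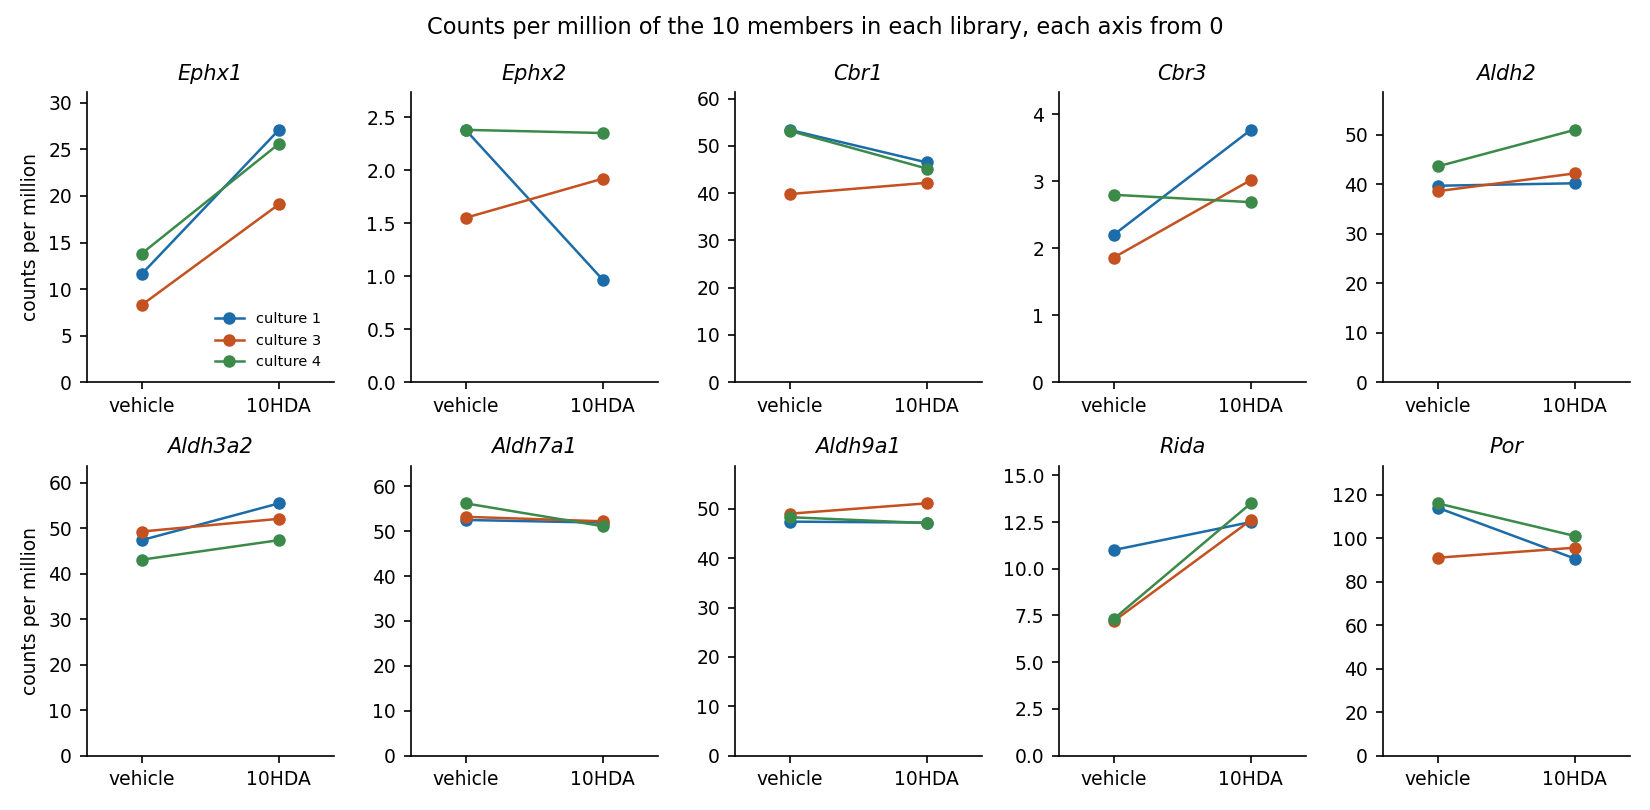
CPM of each member in each library, on axes that start at 0 and differ between panels. Lines join the vehicle and the 10HDA library of a culture. The 3 lines of Ephx1 and of Rida climb to 10HDA values above all vehicle values, whereas most other panels show nearly level or crossing lines.

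The carbonyl reductases were an abundant gene whose groups overlapped and a scarce one with few counts. Cbr1 encodes the main cytosolic carbonyl reductase, which reduces quinones, prostaglandins and lipid aldehydes. It lies on chromosome 16 from 93605853 to 93610505 on the plus strand, and its close relative Cbr3 lies on the same strand from 93683215 to 93690990. Cbr1 had 53.4, 39.8 and 53.2 CPM with vehicle and 46.5, 42.2 and 45.2 CPM with 10HDA. The vehicle library of culture 3 was the lowest of the 6 and the groups overlapped. The log2 fold change was -0.13 (95% interval -0.41 to 0.16), with 1 of 3 cultures higher with 10HDA. Cbr3 encodes a second carbonyl reductase, of narrower substrate range. Cbr3 had 24, 24 and 33 counts with vehicle and 43, 41 and 24 counts with 10HDA, or 2.2, 1.86 and 2.8 CPM and 3.77, 3.02 and 2.69 CPM. It was 1.72 and 1.63 times as high with 10HDA in cultures 1 and 3 and 0.96 times in culture 4. It was under the filter of 10 CPM, and in the fit with a filter of 1 CPM its log2 fold change was 0.49 (95% interval -0.068 to 1.05) without a call. Per kb, Cbr1 had 20.4 ± 2.52 times the level of Cbr3 with vehicle and 13.6 ± 2.14 times with 10HDA (SD, n = 3 each). The gene models share 1 of the 1254 words of 50 bases in Cbr3, and 1.85% of the words of Cbr1 occur in other genes, most of them in Gm5678.

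The 4 aldehyde dehydrogenases had log2 fold changes between -0.061 and 0.15. Their summed level was 189 ± 2.14 CPM with vehicle and 196 ± 1.41 CPM with 10HDA (SD, n = 3 each), with ranges of 187 to 191 and 195 to 198 CPM. None of the 4 genes passed the threshold, and Aldh7a1 went the other way. No like sums of other genes were compared, so nothing is read from this small difference. Aldh2 encodes the mitochondrial enzyme that clears acetaldehyde and lipid aldehydes, and lies on chromosome 5 from 121566027 to 121593824 on the minus strand. It had 39.7, 38.6 and 43.6 CPM with vehicle and 40.2, 42.2 and 51 CPM with 10HDA. The 10HDA value was higher in 3 of 3 cultures, by 1.34% to 17.1%, while the groups overlapped, and the log2 fold change was 0.13 (95% interval -0.14 to 0.39). Of its 50-base words, 1.56% occur in Gm42879 on the opposite strand. Aldh3a2 encodes the fatty aldehyde dehydrogenase of the endoplasmic reticulum, and lies on chromosome 11 from 61223417 to 61267464 on the minus strand. It had 47.4, 49.3 and 43.1 CPM with vehicle and 55.5, 52.1 and 47.4 CPM with 10HDA. Each culture was higher with 10HDA, by 5.65% to 17.1%, again with overlapping groups, and the log2 fold change was 0.15 (95% interval -0.086 to 0.39).

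Aldh9a1 encodes the enzyme that oxidizes 4-trimethylaminobutyraldehyde in carnitine synthesis and also aminobutyraldehyde, and lies on chromosome 1 from 167349991 to 167368532 on the plus strand. It had 47.4, 49 and 48.3 CPM with vehicle and 47.2, 51.1 and 47.1 CPM with 10HDA. This was the smallest difference among the members, a log2 fold change of 0.0083 (95% interval -0.21 to 0.22), with the direction depending on culture 3. Aldh7a1 encodes the enzyme that oxidizes the semialdehyde of lysine breakdown. It had 52.5, 53.2 and 56.2 CPM with vehicle and 51.9, 52.2 and 51.1 CPM with 10HDA. All vehicle values lay above all 10HDA values, although by little: the log2 fold change was -0.061 (95% interval -0.27 to 0.15), and 0.016 with library size alone as the scaling. The exons of Aldh7a1 overlap those of Phax on the opposite strand over 300 bases, and 6.35% of its 50-base words occur in other genes. Some of its reads could therefore be shared or lost if strand was not used in counting. The share of words does not give the share of reads.

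Rida encodes an enzyme that hydrolyses reactive enamines and imines, intermediates of amino acid metabolism, and lies on chromosome 15 from 34484021 to 34495255 on the minus strand. It had 11, 7.19 and 7.31 CPM with vehicle and 12.5, 12.6 and 13.5 CPM with 10HDA. All 10HDA libraries lay above all vehicle libraries, closely so in culture 1. Means were 8.5 ± 2.16 and 12.8 ± 0.538 CPM (SD, n = 3 each), and the 10HDA library had 1.13, 1.75 and 1.84 times the vehicle level in cultures 1, 3 and 4. The log2 fold change was 0.60 (standard error 0.18, 95% interval 0.21 to 0.99) without a call, and 0.61 (95% interval 0.28 to 0.94) with culture as a block, where it passed the threshold, although it had entered the fit through its 10HDA libraries, since 1 of 3 vehicle libraries reached 10 CPM. The call also appeared without the vehicle library of culture 1, at a log2 fold change of 0.84. With both libraries of culture 1 left out, Rida fell under the filter and was not tested. Ephx1, Rida and Aldh7a1 were the 3 of 8 members whose groups did not overlap, beside 13.4% of all genes tested.

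Por encodes cytochrome P450 reductase, the flavoprotein that passes electrons from NADPH to microsomal cytochromes P450, to heme oxygenase and to squalene epoxidase. It lies on chromosome 5 from 135670033 to 135735326 on the plus strand. It had 114, 91 and 116 CPM with vehicle and 90.6, 95.6 and 101 CPM with 10HDA, the most reads of any member. The groups overlapped because vehicle of culture 3 was as low as the 10HDA libraries. Mean levels were 107 ± 14.1 and 95.7 ± 5.09 CPM (SD, n = 3 each), and the log2 fold change was -0.16 (95% interval -0.41 to 0.086). In cultures 1, 3 and 4 the 10HDA library had 0.792, 1.05 and 0.867 times the vehicle level.

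**Figure D3:**
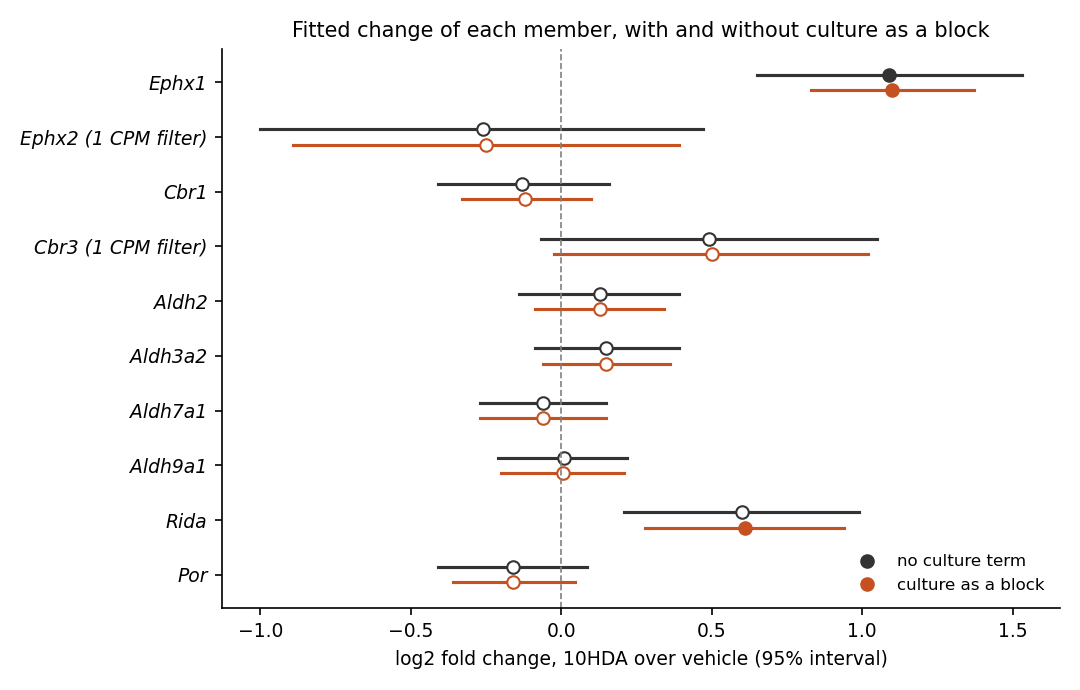
Fitted log2 fold change of each member, 10HDA over vehicle, with its 95% interval, in dark grey without a culture term and in orange with culture as a block. Filled points passed an adjusted p of 0.1. Ephx1 is filled in both fits, at 1.09 and 1.10, Rida with the block at 0.61, and the intervals of the other 8 members include 0.

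The cultures were compared in a test of the culture terms, added after the data were seen. In it 1 of the 8 members (12.5%), Ephx1, passed (adjusted p = 0.0516, edgeR quasi-likelihood F test), a share near the 9.93% of all genes tested and so no result about the members. For the other 7 the adjusted p ran from 0.268 for Cbr1 to 0.971 for Aldh7a1. Ephx1 varied by 1.67 times between the vehicle libraries and by 1.42 times between the 10HDA libraries. Aldh9a1 varied by 1.03 and 1.08 times. Culture 3 had the lowest vehicle value of Ephx1, Ephx2, Cbr1, Cbr3, Aldh2, Rida and Por, that is, of 7 of the 10 members. The share over all genes was not counted, and Ephx2 and Cbr3 had few counts, so nothing is read from this.

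Relatives and partners of the members were followed in 14 lists of 214 genes, of which 50 were tested. Of these, 31 were higher and 19 lower with 10HDA, with a median log2 fold change of 0.12, against -0.0095 over all genes tested. Past the threshold were 3 (6% of the 50), Cyb5r1 and Hmox1 higher and Aldh1l1 lower, beside 0.627% of all genes tested. The block gave 10 calls (20%), 7 higher and 3 lower, beside 8.98% of all genes tested. Without both libraries of culture 1, 0 of 48 passed, with 8 at an unadjusted p under 0.05 (edgeR), and 8 of 48 passed with the block. Of all 10234 genes tested in those fits, 2 passed, 665 had an unadjusted p under 0.05 (edgeR) and 869 passed with the block. The groups did not overlap for 13 of the 50 (26%), beside 13.4% of all genes tested. The lists were written with earlier results of these data known.

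The 3 relatives past the threshold lay beside Por and in the aldehyde dehydrogenase family. Of 11 genes that accept or donate electrons beside Por, 10 were tested, 4 higher and 6 lower with 10HDA. Past the threshold were 2, both higher. Cyb5r1, a relative of cytochrome b5 reductase, had 43.9, 32.5 and 39.3 CPM with vehicle and 87.2, 58 and 76.9 CPM with 10HDA. Every culture was higher with 10HDA and the groups did not overlap (log2 fold change 0.94, standard error 0.16, adjusted p = 0.0428, edgeR quasi-likelihood test). Hmox1, the inducible heme oxygenase and a partner that receives electrons from Por, had 15.5, 11.5 and 15 CPM with vehicle and 27.1, 20.4 and 25 CPM with 10HDA. It was higher in every culture (log2 fold change 0.79, standard error 0.16, adjusted p = 0.0853, same test). Sqle, squalene epoxidase of cholesterol synthesis and the most abundant of the list per kb, had 311 ± 23.3 and 300 ± 27.4 CPM (SD, n = 3 each). Cyb5r3, the main cytochrome b5 reductase, named after its values were seen, had 125 ± 22 and 97.9 ± 5.27 CPM, and passed with culture as a block alone (log2 fold change -0.34, adjusted p = 0.044, same test).

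Of 17 other aldehyde dehydrogenase genes, 8 were tested, 5 higher and 3 lower with 10HDA. Past the threshold was 1, which was lower. Aldh1l1, a cytosolic enzyme of folate metabolism that also served as an astrocyte marker above, had 78.2, 67.3 and 77.6 CPM with vehicle and 36, 30.2 and 44.2 CPM with 10HDA. All 10HDA values were below all vehicle values (log2 fold change -1.02, standard error 0.14, adjusted p = 0.0233, edgeR quasi-likelihood test). It fell together with 4 other markers of the astrocyte list, and the part of astrocytes in this value was not tested. Aldh18a1, which makes the semialdehyde precursor of proline and was the most abundant of the list per kb, had 127, 127 and 124 CPM with vehicle and 152, 146 and 153 CPM with 10HDA without passing (log2 fold change 0.26, adjusted p = 0.36, same test). With culture as a block, Aldh1a3, a retinaldehyde dehydrogenase that reached 10 CPM in all libraries of vehicle but not of 10HDA, also passed (log2 fold change -0.58, adjusted p = 0.0238), as did Aldh1l2, the mitochondrial relative of Aldh1l1 (0.31, adjusted p = 0.0788), both named after their values were seen.

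The calls of these 3 relatives were lost in some fits with fewer libraries and no culture term. Over all alternatives their log2 fold changes ran from -1.17 to -0.89 for Aldh1l1, 0.81 to 1.09 for Cyb5r1 and 0.68 to 0.9 for Hmox1. None of the 3 passed without the vehicle library of culture 3 (adjusted p = 0.114 to 0.211), without the 10HDA library of culture 1 (0.153 to 0.504), or without both libraries of culture 1 (0.16 to 0.414) or of culture 3 (0.135 to 0.33), all from edgeR's quasi-likelihood test. In the same order 2, 0, 2 and 0 of all genes passed, against 66 with all libraries, so the loss was not particular to these relatives. Without the vehicle library of culture 4, Cyb5r1 (0.187) and Hmox1 (0.237) did not pass, nor did Hmox1 (0.105) without the 10HDA library of culture 3 (same test). Without both libraries of culture 4, Cyb5r1 (0.119) and Hmox1 (0.161) did not pass (same test). Of all genes, 10, 27 and 35 passed in these fits, in the order given. With culture as a block all 3 passed with any 1 culture left out.

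**Figure D4:**
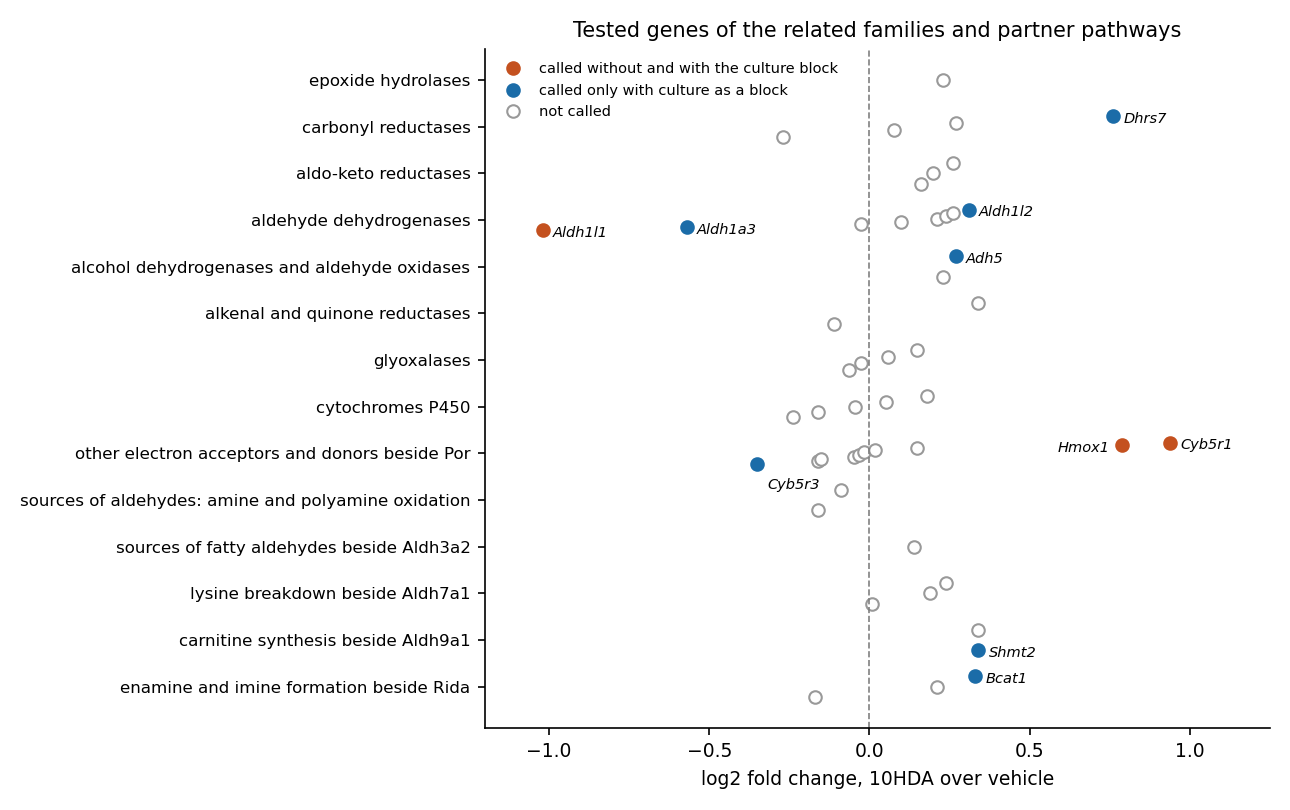
Log2 fold change, 10HDA over vehicle, of the 50 tested relatives and partners of the members, by list (vertical position within a list only separates points). Orange points (Cyb5r1 at 0.94, Hmox1 at 0.79, Aldh1l1 at -1.02) passed an adjusted p of 0.1 with and without culture as a block, blue points passed with the block, and open grey points did not pass.

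With edgeR, the filter of 10 CPM and no block, genes of the other reductase families did not pass. Of 14 carbonyl reductases 4 were tested, and the smallest p belonged to Dhrs7, a microsomal short-chain dehydrogenase. Dhrs7 had 11.3, 8.04 and 9.26 CPM with vehicle and 18.1, 12.5 and 17.7 CPM with 10HDA, without overlap (log2 fold change 0.76, standard error 0.18, adjusted p = 0.168, edgeR quasi-likelihood test). It passed with the block (adjusted p = 0.00157) and with DESeq2 (adjusted p = 0.0417, beside 1.62% of all genes), but it entered these fits through 10HDA, as 1 of 3 vehicle libraries reached 10 CPM. Dhrs1, the most abundant of that list per kb, had 55.6 ± 6.94 and 45.9 ± 2.72 CPM (SD, n = 3 each). It was lower with 10HDA without overlap (log2 fold change -0.27, 95% interval -0.53 to -0.016) and did not pass in either fit. Of 17 aldo-keto reductases 3 were tested, all with positive log2 fold changes between 0.16 and 0.26, and none passed, led in abundance by Akr1a1, the general aldehyde reductase (367 ± 48.5 and 422 ± 69.5 CPM). The smallest p there belonged to Akr7a5, an aflatoxin aldehyde reductase relative (adjusted p = 0.633, same test). Adh5, which oxidizes formaldehyde bound to glutathione, had 88.1 ± 9.57 and 107 ± 5.16 CPM and passed with the block alone (log2 fold change 0.28, adjusted p = 0.0872). Zadh2, a prostaglandin reductase, had 15.3 ± 1.22 and 19.4 ± 2.3 CPM without passing in either fit.

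Lower filters admitted scarcer relatives, which are named here after their values were seen. With a filter of 1 CPM, 4 of 91 relatives tested passed, beside 0.509% of all genes. The 1 added was Aox1, aldehyde oxidase, with 1.71 ± 0.469 and 4.73 ± 0.839 CPM (SD, n = 3 each, log2 fold change 1.46, adjusted p = 0.0525, edgeR quasi-likelihood test). With no filter beyond 1 count, 9 of 164 passed, beside 2.37% of all genes. The 6 added were Aox1, Dhrs7, Aldh1a3, Ptgr1, Cyp4f15 and Pipox. Ptgr1, which reduces alkenals, had 1.2 ± 0.222 and 2.87 ± 0.831 CPM, and Cyp4f15, a fatty acid hydroxylase, had 2.61 ± 0.207 and 1.14 ± 0.101 CPM. Neither passed with the filter of 1 CPM (adjusted p = 0.17 and 0.127), nor did Pipox, pipecolic acid oxidase of lysine breakdown (0.299). The quinone reductases Nqo1 (0.788 ± 0.128 and 1.68 ± 0.442 CPM) and Cryz (8.16 ± 0.379 and 11.1 ± 2.26 CPM) were higher in every 10HDA library than in any vehicle library, without passing (adjusted p = 0.29 and 0.379, filter of 1 CPM, same test). Ptgr2 of the same list was lower in every 10HDA library than in any vehicle library, also without passing (13.9 ± 0.391 and 12.9 ± 0.285 CPM, log2 fold change -0.11). The groups of Nqo2 overlapped.

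The remaining lists held no call with edgeR, the filter of 10 CPM and no block. Lta4h, leukotriene A4 hydrolase and the 1 tested gene of 3 other epoxide hydrolases, had 40.2 ± 5.54 and 47 ± 3.3 CPM (SD, n = 3 each). All 4 genes of the list headed glyoxalases (Glo1, Hagh, Park7 and the esterase gene Esd) were tested, with Glo1 at 41.6 ± 5.79 and 45.9 ± 4.67 CPM and Park7 at 96.8 ± 17.6 and 92.5 ± 2.14 CPM. Of 100 cytochrome P450 genes, the main users of electrons from Por, 42 had no count in any library and 5 were tested. The highest per kb was Cyp51, lanosterol demethylase (348 ± 14.3 and 338 ± 12.2 CPM), and the smallest p belonged to Cyp46a1, the cholesterol hydroxylase of neurons (log2 fold change -0.16, adjusted p = 0.64, edgeR quasi-likelihood test). Smox, spermine oxidase, and Sgpl1, the lyase that releases fatty aldehyde from sphingosine phosphate beside Aldh3a2, had log2 fold changes of -0.16 and 0.14 without passing. Beside Aldh7a1, Dhtkd1 and Gcdh of lysine breakdown had log2 fold changes of 0.24 and 0.0082 without passing. Beside Aldh9a1, Shmt2 had 79.3 ± 13.2 and 100 ± 11.3 CPM, and beside Rida, Bcat1, a transaminase of branched-chain amino acids, had 188 ± 14.3 and 237 ± 10.5 CPM. Both passed with culture as a block (adjusted p = 0.0305 and 0.0306), and Bcat1 also with DESeq2 (adjusted p = 0.0937).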

How the data were processed

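RNA from 6 libraries was analysed. According to the study's methods and the labels, the authors extracted total RNA with the PARIS kit, prepared strand-specific libraries, sequenced 50 bp single-end reads, checked them with FastQC, aligned them to mm10 with Subjunc (Subread 1.4.4) and summed reads over Gencode genes with featureCounts. The strand setting of the counting is not given in the sources used here. The deposited values are raw counts with an exon length per gene, and 0 columns were left unassigned. Symbols were matched for 98% of the genes with GENCODE M21 (GRCm38). The submitters' notes also name edgeR 3.4.2 and R 3.0.2.

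Genes reaching 10 CPM in 3 or more libraries were compared with edgeR 4.0.16 (quasi-likelihood, TMM scaling) in R 4.3.3, with Benjamini-Hochberg adjustment over all genes and a threshold of 0.1, following the study, which names no culture term. Standard errors were taken as log2 fold change over the root of F, and intervals are 95%. Ephx2 and Cbr3 were fitted with a filter of 1 CPM. Scripts were tested on simulated data. The limit of 3 counts covers counting error only. With 3 libraries against 3, the smallest p of an exact permutation test is 0.1, and such tests were not run.

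The labels put 1 library of each treatment in a culture, so the culture pairs the libraries. Deviations of the paired libraries from their group means correlated across genes, which are not independent, at 0.36, 0.23 and 0.62. Unpaired libraries of different treatments ran from -0.45 to 0.19. The highest of these, vehicle of culture 1 with 10HDA of culture 3, was close to the 0.23 of the pair of culture 3. No 2 libraries agreed within sampling noise (mean chi-square per gene 5.82 to 38.1).

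The members and lists were chosen with earlier results of these data known. Of the lists, the genes named by rule are those past the threshold, the one with the smallest p and the most abundant in vehicle per kb of each list. Genes beyond this rule were also named, some of them after their values were seen. Tmlhe was not matched. Alternatives were other scalings, DESeq2 1.42.0, limma-voom (limma 3.58.1), other filters, a threshold of 0.05, culture as a block and left-out libraries or cultures.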

Additional observations from a re-analysis of the deposited data

How the results depend on the processing

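With culture as a replicate block, the paired analysis, 2 members, 10 relatives and 945 of all genes passed, against 1, 3 and 66 without it, and the log2 fold change of Rida was 0.61. With the block and culture 1, 3 or 4 left out, 8, 12 and 5 relatives and 869, 1089 and 358 genes passed, and without culture 3, 2 members, with Rida at 0.51. Without a culture term, leaving out both libraries of culture 1 or of culture 3 left 0 members (1 at an unadjusted p under 0.05 in each) and 0 relatives (8 and 11), with 2 and 0 genes and Ephx1 at 1.03 and 1.05. Leaving out those of culture 4 left 1 relative and 35 genes. With 1 library left out, 0 to 2 members, 0 to 4 relatives and 0 to 355 genes passed. Of the 2 counts of 0 genes, 453 had an unadjusted p under 0.05 without the 10HDA library of culture 1, and 689 without culture 3. Ephx1 then ran from 0.92 to 1.29 and Rida from 0.51 to 0.84. DESeq2 called 5 relatives and 170 genes, and no filter beyond 1 count 2 members, 9 relatives and 636 genes, with Rida at 0.61. A threshold of 0.05 left 43 genes. Directions reversed for Aldh7a1 with library size alone (0.016), for Ephx2 without the 10HDA library of culture 1 (0.02, in a range of -0.50 to 0.02 with 1 library left out), without both of culture 1 (0.12) and with the block as well (0.15), and for Aldh9a1 without the 10HDA library of culture 3 (-0.031, in a range of -0.031 to 0.04) and without culture 3, with or without the block (-0.019). The other 224 log2 fold changes of members and called relatives kept their direction and side of the threshold, 21 kept their direction but lost the call, and 4, all of Rida, gained it. The causes were not tested. Exon length was the setting that moved most levels per kb. At this depth Ephx2 and Cbr3 were too scarce to resolve.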
